A study of Mus musculus with 7 samples.

Results

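The genes described here are the cathepsins Ctsa, Ctsb, Ctsc, Ctsd, Ctsh, Ctsk, Ctsl, Ctss and Ctsz together with legumain (Lgmn). They were chosen by symbol, as members of the lysosomal protease families. All 10 have a row in each of the 7 single-cell expression matrices of the series, among 27514 genes shared by the 2 annotations used (27998 genes for the CD45+ libraries and 31053 for both pools). In the monocyte/macrophage class of the infarcted heart the 10 genes together made up 0.633% of all transcripts on day 1 and 2.82% on day 5 in one experiment, and 1.13% and 2.51% in the other. In the first of these, the CD45+ libraries, 210 of the 247 day 1 cells of the class lay in a sub-cluster with neutrophil markers. Without such sub-clusters the day 1 shares were 0.714% (37 cells) and 1.14%. Ctsb and Ctsd, the general-purpose lysosomal endoproteases, Ctsa, Lgmn, Ctss and Ctsk were higher on day 5 than on day 1 in the test described below, of which only Ctsb and Ctsk also passed without the day 1 cells that fell in sub-clusters with neutrophil markers. Nearly all Ctsk transcripts of day 5 came from 10 cells in one experiment and 16 in the other.

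Cathepsins are proteases of the acidic endosome and lysosome, where macrophages take apart engulfed dead cells, matrix and their own worn-out organelles. Ctsb, Ctsc, Ctsh, Ctsk, Ctsl, Ctss and Ctsz are cysteine proteases, Ctsd is an aspartic protease, Ctsa a serine carboxypeptidase, and legumain a cysteine protease that cuts after asparagine. Some have a task beyond bulk digestion: Ctss trims the invariant chain so that MHC class II can take up peptides, Ctsc activates the serine proteases of neutrophil and lymphocyte granules, and Ctsk is the collagenase with which osteoclasts resorb bone.

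Single cells came from C57BL6/J mice with myocardial infarction by permanent ligation of a coronary artery, or with no infarct. In the first experiment, viable CD45+ leukocytes of male hearts were sorted into 1 library per time: steady state with no infarct (5 mice pooled), and day 1, day 3, day 5 (5 mice each) and day 7 (3 mice) after infarction. An antibody to CD45.2 injected into the vein shortly before death marked leukocytes still in the blood, which were gated out, and neutrophils were reduced on purpose, so that shares of neutrophils are set by the sort. In the second experiment, CD11b+ myeloid cells of male infarcted hearts of day 1 (5 mice), day 3 (5 mice) and day 5 (3 mice) were marked with 3 hashtag antibodies and loaded as 1 pool, together with 10 surface antibodies. The third preparation pooled CD11b+ cells of blood and of mechanically dissociated heart tissue of mice aged 8 to 10 weeks, sex not stated: no surgery (3 mice), sham surgery without ligation at day 1 (3) and day 3 (3), and infarction at day 1 (5) and day 3 (5), under 7 hashtags whose conditions are not given in the sources used here. The tissue taken from infarcted hearts held the infarct, its border and adjacent living muscle, and in both heart experiments it was digested with collagenases and hyaluronidase.

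The libraries held 552 to 1807 barcodes and 3611089 to 11511763 transcript counts (unique molecular identifiers, UMIs) in used cells of the CD45+ samples, 92965617 in the CD11b+ heart pool and 68219740 in the blood and heart pool. Cell classes were named from fixed marker genes as monocyte/macrophage-like, neutrophil-like and so on; the ending is dropped below. Mice were pooled within each library, so that no value has a spread between mice: each class was summed per library and day, the 2 experiments served as the replicates of days 1, 3 and 5, and steady state and day 7, with 1 library each, entered no test. With the experiment as a term, a p-value between days thus measures how far the changes disagree between the 2 experiments. These differ in chemistry (version 2 and version 3) and sort. The tests of surface antibodies use the heart pool alone, so their p-values measure how far a difference varies between the days of that pool. Levels are given in counts per 1000000 (CPM), the UMIs of a gene scaled to that total of the same cells; the libraries read the 3′ end of each transcript, so these levels are not scaled by transcript length. For the members other than Ctsk in the heart macrophage sums, each level rested on at least 350 UMIs and the upper bound of its exact Poisson 95% interval lay at most 11% above it; these intervals cover counting error only.

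The day 1 macrophages need care before any day is compared with them. In the CD45+ experiment 210 of the 247 cells of that class on day 1 fell in 1 sub-cluster led by Cxcl3, Lcn2, S100a8 and Saa3, whereas the day 5 cells fell mostly in clusters led by Gpnmb, Ms4a7, Spp1 and Trem2. The 12 neutrophil markers summed to 18782 CPM in the day 1 macrophage sum, above the 15182 of the 16 macrophage markers (none of which was at 0), against 1780.0 on day 3, 488 on day 5, 402 on day 7 and 149 in steady state. In the CD11b+ heart pool the same 12 markers summed to 2180.3, 749.8 and 661 on days 1, 3 and 5. Results for day 1 are therefore also given without the neutrophil-marker sub-clusters. They are also given without 1 CD45+ cluster and 2 pool clusters that carried no macrophage marker among their 10 leading genes and were named by the markers they contained; 1 of these, led by H2-Eb1 and H2-Aa, had Fabp4, a gene of the endothelial list, among its leading 10. Both of these settings were chosen after seeing the data.

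The 10 genes lie on chromosomes 2, 3, 7, 9, 12, 13 and 14 of the mouse genome (GRCm38). Ctsk (chr3:95499256-95509362) and Ctss (chr3:95526786-95556403) are neighbours on chromosome 3, both on the plus strand, 17423 bases apart with 0 annotated genes between them. Ctsc (chr7:88278085-88310888) and Ctsd (chr7:142375911-142388038) share chromosome 7, and Ctsa (chr2:164832873-164841032) and Ctsz (chr2:174427493-174439039) share chromosome 2, both pairs far apart. Ctsb is at chr14:63122462-63145923, Ctsh at chr9:90054152-90076089, Ctsl at chr13:64359337-64370890 and Lgmn at chr12:102394084-102439813.

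Many lysosomal genes carry the E-box CACGTG near their start, as part of the motif bound by Tfeb and its relatives. The 250 bases before the start were searched on both strands in RefSeq promoter sequences (GRCm38.p6), where 8 of the 10 members had an entry (Ctsb and Ctsh had none). CACGTG was found in 4 of their 10 promoter windows, 1 each of Ctsa, Ctsd, Ctsl and Lgmn, against 6.02% of all 32851 promoter windows, and TCACGTG, which contains it, was found in 3 of the 10, of Ctsa, Ctsd and Lgmn, against 3.13%. Ctsa and Lgmn have 2 windows each, and the one at the more upstream start held no match. Of the 4 genes with a match 3 were called higher in the day comparison below (Ctsa, Ctsd and Lgmn), and of the 4 searched genes without one 2 were (Ctsk and Ctss). The sites are shown so that the matches can be read in place; each line gives 30 bases on the gene's own strand, with CACGTG in capitals.
Ctsa chr2:164833743-164833772 (+): gaacaatgagcaaactgtCACGTGatgcag
Ctsd chr7:142387908-142387937 (-): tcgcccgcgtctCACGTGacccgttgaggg
Ctsd chr7:142388048-142388077 (-): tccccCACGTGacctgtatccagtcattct
Ctsl chr13:64370739-64370768 (-): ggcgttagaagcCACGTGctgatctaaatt
Lgmn chr12:102439124-102439153 (-): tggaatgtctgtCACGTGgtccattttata
In the windows with a match the E-boxes began 12 bases before the start of Ctsa, 98 and 245 before Ctsd, 236 before Ctsl and 49 before Lgmn. The Ctsa, nearer Ctsd and Ctsl sites overlap annotated exons of other transcripts of their own gene. A match is a run of letters and was not tested as a binding site.

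The members' joint share of all UMIs of the macrophages moved with time in the same order in both experiments. In the CD45+ libraries it was 1.14% in steady state and 0.633%, 2%, 2.82% and 2.07% on days 1, 3, 5 and 7. In the CD11b+ heart pool it was 1.13%, 1.94% and 2.51% on days 1, 3 and 5. Exact binomial 95% intervals of these shares reached at most 0.0118 percentage points to either side. Without the neutrophil-marker sub-clusters the day 1 shares were 0.714% (37 cells) and 1.14%. Both shares of day 1 were the lowest and both shares of day 5 the highest of their experiment.

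Day 5 against day 1 was the comparison in which the members passed the test. With edgeR's quasi-likelihood test, fitted to all 10728 genes of 6 sums with the experiment as a term and Benjamini-Hochberg adjustment, 6 of the 10 members were higher on day 5 and 0 were lower, where 4.9% of all genes tested were called higher and 5.62% lower (10.5% in either direction; 526 genes higher and 603 lower, but 624 and 344 when scaled by total counts alone). The median log2 change of the 10 members was 1.31, beside 0.0072 for all genes. DESeq2 also called 6 members. Without the neutrophil-marker sub-clusters, which held most of the CD45+ day 1 cells, 2 members were called.

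Ctsb, a cysteine endo- and exopeptidase, was the most abundant member in the heart macrophage sums except on CD45+ day 1, where Ctss (1365) and Ctsl (1166) lay above it. In the CD45+ macrophages Ctsb was at 3556 CPM in steady state and at 1156, 4896, 8435 and 5279 on days 1, 3, 5 and 7. In the pool its levels were 2165, 5589 and 7396 CPM on days 1, 3 and 5. Both day 5 levels lay above both day 1 levels, and the log2 change was 2.06 ± 0.24 (SE; edgeR adjusted p = 0.0096), from 2.52 within the CD45+ experiment and 1.62 within the pool. Ctsd, the main aspartic protease of the lysosome, was at 601, 397, 2532, 3617 and 3867 CPM from steady state to day 7 of the CD45+ libraries, so that day 7 held its highest level. Its pool levels were 1824, 4375 and 5983 CPM. Its log2 change from day 1 to day 5 was 2.15 ± 0.35 (adjusted p = 0.0218), with 2.84 and 1.56 within the experiments. Ctsl, the third general endoprotease and a partner of Ctss in invariant chain processing in other tissues, did not pass: it was at 285 CPM in steady state, 1166, 1262 and 1204 on days 1, 3 and 5 and 1029 on day 7. In the pool it was at 1713, 2103 and 2678. Tests use levels scaled by TMM, a correction for RNA composition, and CPM are unscaled: on the TMM scale the CD45+ level of Ctsl went from 1528 on day 1 to 1244 on day 5, whereas its CPM hardly moved, with overlapping counting intervals. The log2 changes of Ctsl on the TMM scale had opposite signs in the 2 experiments, -0.30 and 0.50 (fitted 0.11 ± 0.22, adjusted p = 0.766).

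Ctss and Lgmn, the members with a part in antigen processing, were both higher on day 5. Ctss was at 2118 CPM in steady state, then 1365, 4113, 6309.8 and 4734 on days 1, 3, 5 and 7 of the CD45+ libraries. Its pool levels were 1511, 1994 and 2841 CPM, and the log2 change was 1.28 ± 0.30 (adjusted p = 0.0491; 1.87 and 0.76 within the experiments). Ctss lay closest to the threshold of the 6 called members. Lgmn, which also activates other cathepsins by cutting their single chain, was at 1159, 410.4, 1977, 2828 and 1891 CPM from steady state to day 7. In the pool Lgmn was at 902, 1799 and 2194. Its log2 change was 1.74 ± 0.34 (adjusted p = 0.0305; within the experiments 2.44 and 1.13).

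Among the exopeptidases, which trim single residues or short pieces from chain ends, Ctsa passed the test and Ctsc, Ctsh and Ctsz did not. Ctsa, a carboxypeptidase that also protects lysosomal galactosidase and neuraminidase, was at 420.4 CPM in steady state and 149, 481, 652 and 483 on days 1, 3, 5 and 7. Its pool levels were 307, 553 and 655, and its log2 change was 1.34 ± 0.24 (adjusted p = 0.0272; 1.79 and 0.94 within the experiments). Ctsc, the dipeptidyl peptidase that activates granule serine proteases, went different ways: it was at 773, 2488 and 2329 CPM on days 1, 3 and 5 of the CD45+ libraries, and at 1429.6, 1233 and 1224 in the pool. The day 5 levels of Ctsc thus lay on both sides of the pool's day 1 level, and the fitted log2 change was 0.34 ± 0.43 (adjusted p = 0.619; 1.25 and -0.37). Ctsh, an aminopeptidase, was at 295 and 1033 CPM on days 1 and 5 in the CD45+ libraries and 492 and 709 in the pool (log2 change 0.88 ± 0.30, adjusted p = 0.103). Ctsz, a carboxypeptidase, was at 614 and 1509.9 in the CD45+ libraries and 956 and 1283 in the pool (log2 change 0.60 ± 0.23, adjusted p = 0.139). For both, the 2 within-experiment log2 changes were above 0, at 1.46 and 0.38 for Ctsh and 0.95 and 0.28 for Ctsz.

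Ctsk had by far the widest range over time of the members. Its sums in the CD45+ macrophages held 3 UMIs in steady state, and 3, 38, 2257 and 29 on days 1, 3, 5 and 7, which are 0.774, 1.28, 5.02, 298 and 4.3 CPM. In the pool there were 21, 484 and 6420 UMIs on days 1, 3 and 5, or 3.77, 12.9 and 147 CPM. The fitted log2 change from day 1 to day 5 was 6.10 ± 0.69 (edgeR adjusted p = 0.00921; 7.30 and 5.10 within the experiments). From the counts alone, the day 5 level was 233 times that of day 1 in the CD45+ libraries (exact 95% counting interval 79.7 to 1132) and 39.0 times in the pool (25.5 to 63.1). Against the steady state it was 385 times as high (131 to 1867), with no replicate of the steady state. On day 7 Ctsk was at 4.3 (2.88 to 6.18), a counting interval that overlaps that of day 3 (3.56 to 6.9).

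The number of members called for day 5 against day 1 depended on which day 1 cells entered. Without the neutrophil-marker sub-clusters, which left 37 day 1 cells in the CD45+ experiment, 2 members were called, Ctsb (log2 change 1.99, adjusted p = 0.0386) and Ctsk (5.97, adjusted p = 0.034), and Ctsa, Ctsd, Ctss and Lgmn had adjusted p = 0.0738, 0.073, 0.117 and 0.0606. In those 37 cells Ctsb was at 1673 CPM, Ctsd at 299, Ctss at 1529.9 and Lgmn at 718, each below its day 3, day 5 and day 7 levels. The neutrophil markers still summed to 6710 CPM in these 37 cells, against 1779 on day 3 and 488 on day 5 in the same setting. Of the 37 cells 32 lay in the interferon-high sub-cluster. Without the 3 clusters named by their contained markers, no day 1 sum of the CD45+ experiment was left, so that day 1 was the pool's sum alone, assumed to vary like the other days; on that footing the same 6 members were called higher (log2 changes of 0.98 for Ctsa, 1.88 for Ctsb, 1.69 for Ctsd, 5.91 for Ctsk, 0.67 for Ctss and 1.35 for Lgmn, adjusted p up to 0.0107) and Ctsc was called lower, at -0.55 (adjusted p = 0.0266). Without the CD45+ day 5 sum 3 members were called, Ctsb, Ctsd and Ctsk; without the pool's day 1 sum 9 were called, all but Ctsl. Without the experiment as a term 0 members were called and 5 had an unadjusted p under 0.05, with 0 of all genes called.

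**Figure D1:**
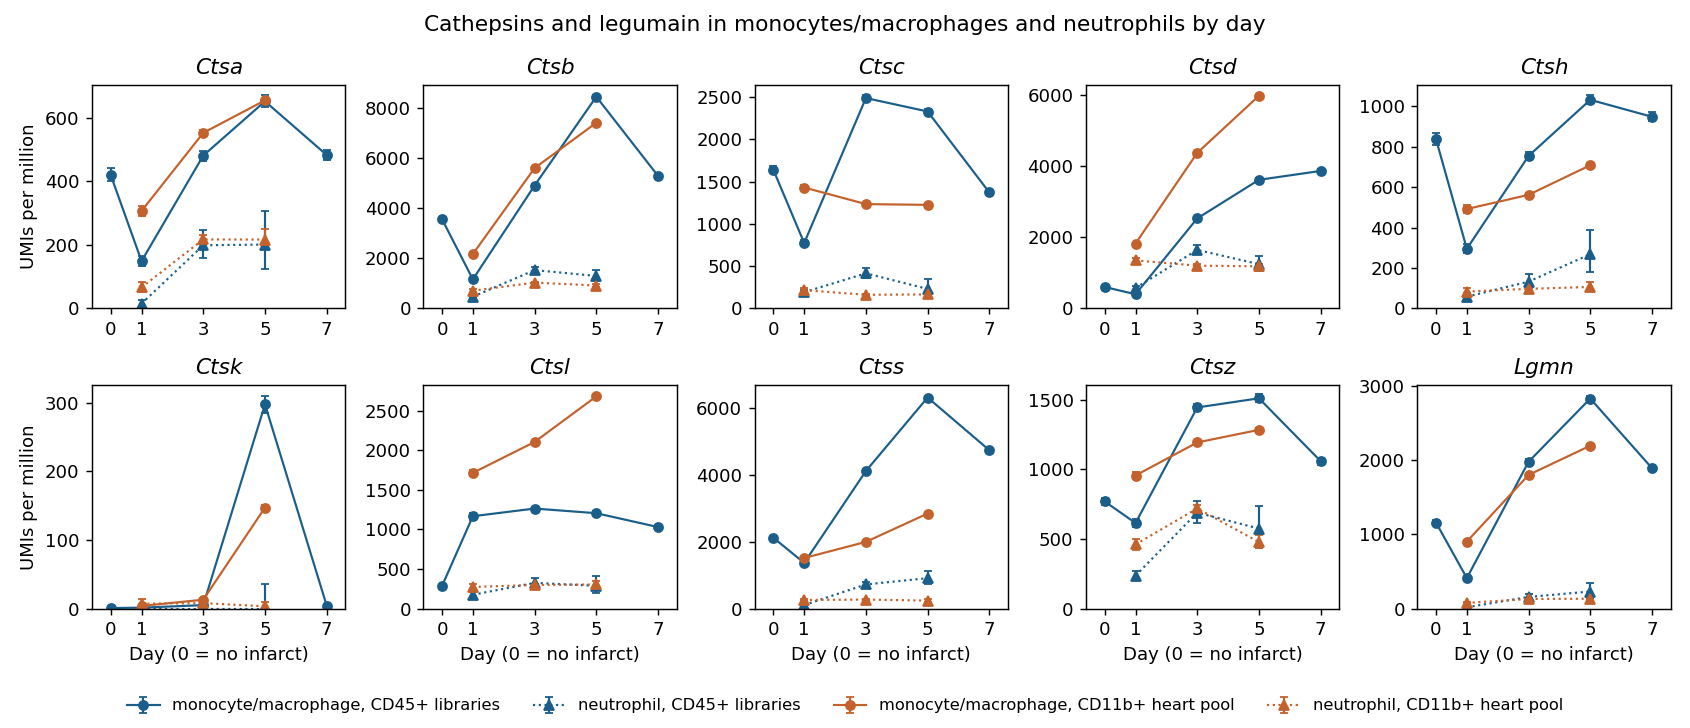
Levels of the 10 members (y axis, CPM, 1 panel per gene with its own scale from 0) by day, with day 0 for no infarct; circles are heart monocytes/macrophages and triangles neutrophils, in blue for the CD45+ libraries and orange for the CD11b+ heart pool, and bars are exact Poisson 95% intervals, which cover counting error only. In macrophages Ctsa, Ctsb, Ctsd, Ctss and Lgmn sit higher on day 5 than on day 1 in both series, and so do Ctsh and Ctsz, which did not pass the test. Ctsl does so clearly in the pool alone (in the CD45+ libraries the intervals of 1166 and 1204 overlap), and Ctsk is near 0 on every day but day 5.

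The members' joint share in macrophages on day 3 lay between those of day 1 and day 5, and the tests of day 3 share sums with the comparison above. In the CD45+ libraries Ctsc and Ctsl were instead higher on day 3, at 2488 and 1262 CPM, than on day 1 or day 5. For day 3 against day 1, edgeR called 5 of 10728 genes (0.0466%), all lower, and 0 members; 5 members had an unadjusted p under 0.05 and DESeq2 called 4 (DESeq2 called 208 genes higher and 332 lower). The log2 changes were 1.49 ± 0.24 for Ctsb (adjusted p = 0.0645), 1.71 ± 0.35 for Ctsd (0.101), 1.37 ± 0.33 for Lgmn (0.13) and 1.03 ± 0.24 for Ctsa (0.122). The members' median was 0.89, beside 0.014 for all genes. Without the pool's day 1 sum 8 members were called for this comparison, without the CD45+ day 1 sum 4, and without either day 5 sum 3. For day 5 against day 3, edgeR called 2 genes (0.0186%) and 0 members, with 2 members at an unadjusted p under 0.05, Ctsb at 0.57 ± 0.23 and Ctsk at 4.59 ± 0.58 (adjusted p = 0.184); DESeq2 called 1 member, among 37 genes higher and 68 lower. Without either day 1 sum 3 members were called, and without the pool's day 5 sum 1.

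Steady state and day 7 rest on 1 library each, so their levels are set beside the others with counting intervals and no test. Ctsl in steady state, at 285 CPM (268 to 302), was below each of the later CD45+ libraries, the lowest of which was 1029 on day 7. Ctsd in steady state was at 601 (577 to 626), above day 1 and below days 3, 5 and 7, and on day 7 it was at 3867 (3821 to 3915), the only member with its highest CD45+ level on that day. Ctsc on day 7, at 1371 (1343 to 1399), was below its steady state level of 1639.5 (1599 to 1680.4). Ctsb was at 3556 (3497 to 3616) in steady state and 5279 (5225 to 5335) on day 7. The members thus ranked differently in the uninjured and the healing heart: Ctsb, Ctss and Ctsc led in steady state, and Ctsb, Ctss and Ctsd on day 7. The 9 cardiomyocyte markers summed to 375 CPM in the steady state macrophages and to 26 on day 7, a difference whose part in these levels was not tested.

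The Ctsk transcripts of day 5 were concentrated in very few cells. In the CD45+ library 10 of 786 macrophages (1.27%, exact binomial 95% interval 0.612 to 2.33%) carried 10 or more Ctsk UMIs and together held 94.4% of the 2257. The cell with most held 511. In the pool 16 of 1403 macrophages (1.14%, 0.653 to 1.85%) held 94.0% of the 6420, and 1 cell alone held 2552, or 39.8%. Cells with that many Ctsk UMIs numbered 0 in steady state and on day 1 of both experiments, 1 of 650 and 4 of 1164 on day 3, and 1 of 589 on day 7. A count of 0 of 527 in steady state allows a share of up to 0.569% of cells (3 cells of the total). On day 1, 0 of 247 and 0 of 241 allow up to 1.21% and 1.24%, near the day 5 shares. Within either experiment alone a lower share of such cells on day 1 was thus not detectable at these cell numbers. The 2 experiments were not combined for this. Without these cells, Ctsk was at 17.4 CPM in the CD45+ macrophages and at 9.09 in the pool on day 5; the limit of 10 UMIs was set after seeing the data.

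The cells rich in Ctsk were poor in most other members as a share of their UMIs. Counts per cell were not compared. Ctss was at 1359.7 against 6513 CPM in the CD45+ library and 1064 against 2886 in the pool (Ctsk-rich cells against the other day 5 macrophages). Ctsc was at 144 against 2419 CPM in the CD45+ library and 271 against 1248 in the pool. Ctsh was at 157 against 1069 CPM in the CD45+ library and 129 against 724 in the pool. The same order, lower in the Ctsk-rich cells of both experiments, held for Ctsa, Ctsb, Ctsd, Ctsz and Lgmn, and Ctsl was the member that came closest to equal, at 1283 against 1201 CPM in the CD45+ library and 2009 against 2695 in the pool. These cells had more RNA counted: their median total was 29026 UMIs against 8366 in the CD45+ library and 61264 against 28067 in the pool. Of 12 genes known from osteoclasts, a list added after seeing which cells carried Ctsk, Acp5, the tartrate-resistant acid phosphatase, was at 4597 against 142 CPM in the CD45+ library and 4633 against 129.6 in the pool. Atp6v0d2, a proton pump subunit needed for cell fusion, was at 832 against 13.5 CPM in the CD45+ library and 848 against 20.8 in the pool. Mmp9, a gelatinase that is also on the neutrophil marker list, was at 1918 against 25.3 CPM in the CD45+ library and 2445 against 33.4 in the pool. Dcstamp and Ocstamp, which encode fusion proteins, were at 110.2 and 93.5 in the Ctsk-rich cells of the CD45+ library and at 92 and 80.9 in those of the pool, and at 3.27 or less and 3.43 or less elsewhere. Nfatc1, the transcription factor of osteoclast formation, was at 160.4 against 13 CPM in the CD45+ library and 443 against 26.4 in the pool, and Calcr, the calcitonin receptor, was at 0 in all of them, while Csf1r, a macrophage marker, was at 281 and 322 in the Ctsk-rich cells. These contrasts describe cells picked by their Ctsk count, so no test was made and the cells are given no name. Of the 10 cells 9 lay in the CD45+ sub-cluster with proliferation markers, and of the 16 cells 14 lay in an unnamed pool sub-cluster led by Hbb-bs, Hba-a1, Hba-a2 and Acp5.

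**Figure D2:**
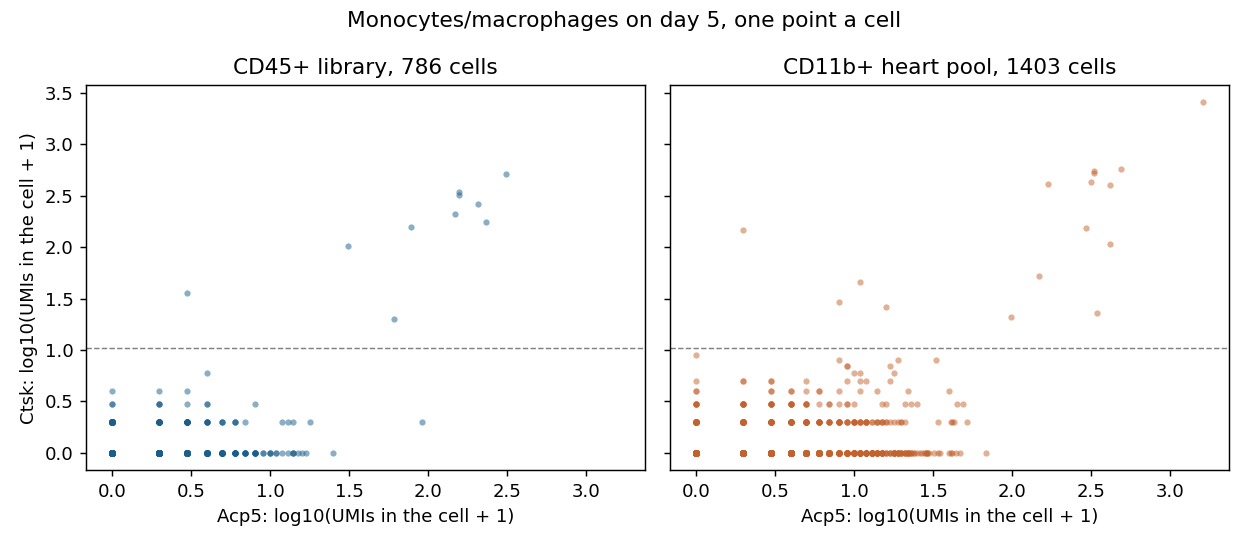
Ctsk UMIs (y axis) against Acp5 UMIs (x axis) of single day 5 macrophages, each as log10(UMIs in the cell + 1), in the CD45+ library (left) and the CD11b+ heart pool (right); each point is a cell and the dashed line marks 10 Ctsk UMIs. The 10 and 16 cells on or above the line stand apart from the rest, and most of them also lie to the right of nearly all other cells.

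Neutrophils carried the members at lower levels than macrophages, with Ctsd and Ctsb the most abundant. Their joint share of neutrophil UMIs was 0.183%, 0.58% and 0.524% on days 1, 3 and 5 of the CD45+ libraries and 0.349%, 0.412% and 0.374% in the pool. Ctsd in neutrophils was at 574, 1645 and 1244 CPM in the CD45+ libraries and 1350.0, 1201 and 1183 in the pool, and Ctsb at 464, 1524 and 1292 and at 704, 1026 and 910.2. On day 1 of the CD45+ experiment Ctsd was the member with a higher level in neutrophils than in macrophages, at 144% of the macrophage level. There C1qa, a macrophage gene whose transcripts in neutrophils can come from free RNA, was at 5.78%. Of the 247 cells of that macrophage sum 210 lay in the sub-cluster with neutrophil markers. In the pool the order on day 1 was the reverse, with Ctsd at 1350.0 CPM in neutrophils and 1824 in macrophages. Ctsk had too few neutrophil UMIs to be tested (0 in the 3 CD45+ sums).

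In neutrophils, Ctsa was the 1 member that passed a test between days. It was at 15, 199 and 201 CPM on days 1, 3 and 5 of the CD45+ libraries and at 66.2, 217 and 217 in the pool, with both day 1 levels below all later ones. Macrophage genes were also at higher levels after day 1 in the CD45+ neutrophil sums: C1qa was at 13.8, 114 and 258 CPM and Apoe at 90, 1013 and 2967 on days 1, 3 and 5, while all 16 macrophage markers (1 at 0) summed to 14051, 16674 and 14385 there and (0 at 0) to 10090.0, 6097 and 7319.9 in the pool. Ctsa was at 10.1%, 41.3% and 30.8% of its macrophage level on the 3 days, where C1qa was at 5.78%, 10.2% and 8.66%; the part of these transcripts in the rise of Ctsa was not tested. For day 3 against day 1 edgeR called 148 of 6187 genes (2.39%; 0.533% higher and 1.86% lower; 33 and 115 genes, but 395 and 53 when scaled by total counts alone), and of the 9 members tested Ctsa alone, higher by 1.87 ± 0.47 log2 (adjusted p = 0.0432; 2.97 and 1.08 within the experiments). That call was lost without the CD45+ day 3 sum (1.43, adjusted p = 0.298), without the pool's day 5 sum (1.93, 0.109) and when each cell's class was taken from its own marker UMIs (0.79, 0.769), and without the pool's day 1 sum 3 members were called. For day 5 against day 1 443 genes were called (7.16%; 1.86% higher and 5.3% lower; 115 and 328 genes, but 1129 and 90 when scaled by total counts alone) and 0 members; 2 had an unadjusted p under 0.05, Ctsa at 1.50 ± 0.47 (adjusted p = 0.0651) and Ctsc at -1.07 ± 0.43 (adjusted p = 0.137), and DESeq2 called 0. The count was 3 without the pool's day 1 sum and 1 without the CD45+ sum of day 1 or of day 3. For day 5 against day 3 edgeR called 0 genes (0%; DESeq2 called 1 gene and 0 members, and the unadjusted p was under 0.05 for 127 genes and 0 members).

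Whether the day 5 against day 1 change differed between macrophages and neutrophils was tested with an interaction term over the 12 sums. edgeR called 2 of 10188 genes (0.0196%) and 0 members; 5 members had an unadjusted p under 0.05 and DESeq2 called 3. The difference in log2 change, macrophages minus neutrophils, was 2.19 ± 0.46 for Ctsb (adjusted p = 0.059) and 2.77 ± 0.58 for Ctsd (0.0574). Ctsk is part of the counts above and of those without 1 sum, but its neutrophil sums of the CD45+ experiment held 0 UMIs, so that no neutrophil change was measured and no value is given. Within the experiments the log2 changes of Ctsd in neutrophils were -0.14 and -0.96, on the TMM scale, where those in macrophages were both above 0. The direction in neutrophils depends on the scaling: the CPM of Ctsd given above was higher on day 5 than on day 1 in the CD45+ neutrophils, and scaled by total counts alone its fitted change in neutrophils was 0.39 in place of -0.61, that of Ctsb 0.89 in place of -0.12, and the differences 2.01 for Ctsd and 1.43 for Ctsb. Leaving out 1 sum at a time gave 0 to 4 calls, with 4 without the pool's day 1 macrophages and 3 without the CD45+ macrophages of day 1 or of day 3 or the pool's of day 3. It gave 2 without the CD45+ day 1 neutrophils, and 1 without the CD45+ or the pool's day 5 macrophages or the CD45+ day 3 neutrophils.

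**Figure D3:**
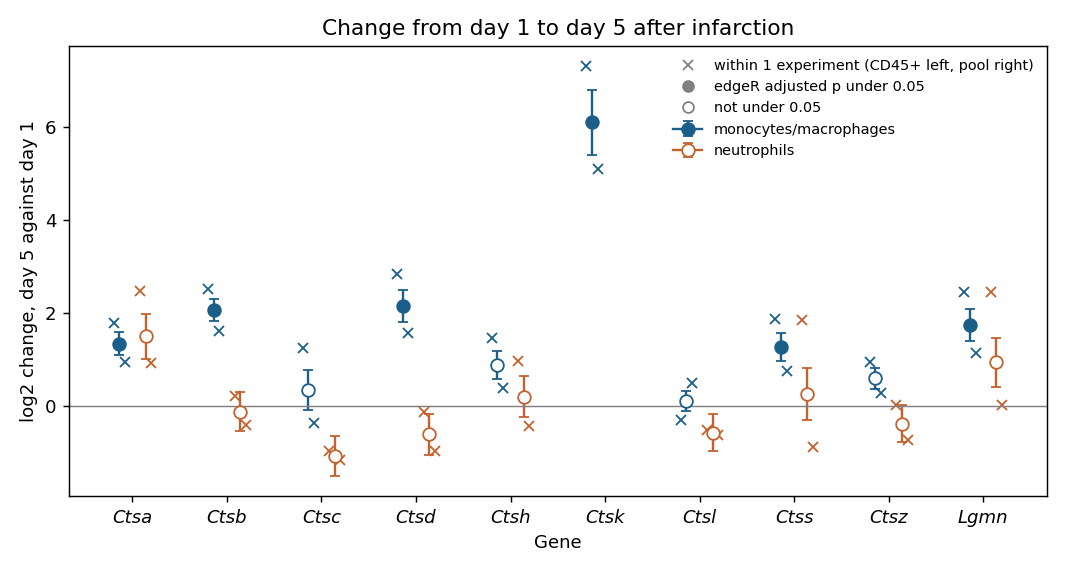
Log2 change of each member from day 1 to day 5 in heart macrophages (blue) and neutrophils (orange); circles are edgeR's fitted values with 1 SE to either side, filled where the adjusted p was under 0.05, and crosses are the changes within the CD45+ (left) and the pool (right) experiment, all on the TMM scale. In macrophages Ctsa, Ctsb, Ctsd, Ctsk, Ctss and Lgmn are filled, and in neutrophils 0 members are; Ctsk was not tested in neutrophils.

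The classes of heart leukocytes differed in which members they carried, described here over all CD45+ libraries together and with no test. Macrophages (2799 cells) had the highest level among the 7 classes plotted of every member except Ctsh when all days were summed, led by Ctsb at 5445 CPM, Ctss at 4349 and Ctsd at 2699.7. For Ctsk this rests on the 10 day 5 cells described above: without them macrophages were at 7.19 CPM, below the fibroblasts. Dendritic cells (160 cells), whose task is to present antigen, were led by Ctss at 2357 and Ctsh at 1021, and carried little Ctsl (159) and Ctsd (342). On day 5 Ctsh in dendritic cells was at 165% of the macrophage level of that library, Ctsz at 75.6% and Ctss at 47.7%, where C1qa, a macrophage gene, was at 5.34%. B cells (1019 cells) were led by Ctss at 993, followed by Ctsb at 537, Ctsd at 498 and Ctsh at 356. On day 7, where most B cells were sampled, Ctsh in B cells was at 37.4% of the macrophage level but Ctsb at 10.4%, within the range of the C1q genes (11.5% for C1qa) and so not told apart from free RNA. NK cells (90 cells) were led by Ctsd at 1210.3; on day 7 Ctsd was at 31.8% of the macrophage level, but Ctsb at 21.9% and Ctss at 20.3% were close to Apoe (21.3%) and C1qa (18.9%) and not told apart from free RNA. The 47 fibroblasts were led by Ctsb at 1187 and Ctsl at 641, with Ctsk at 52.3 (23 UMIs).

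**Figure D4:**
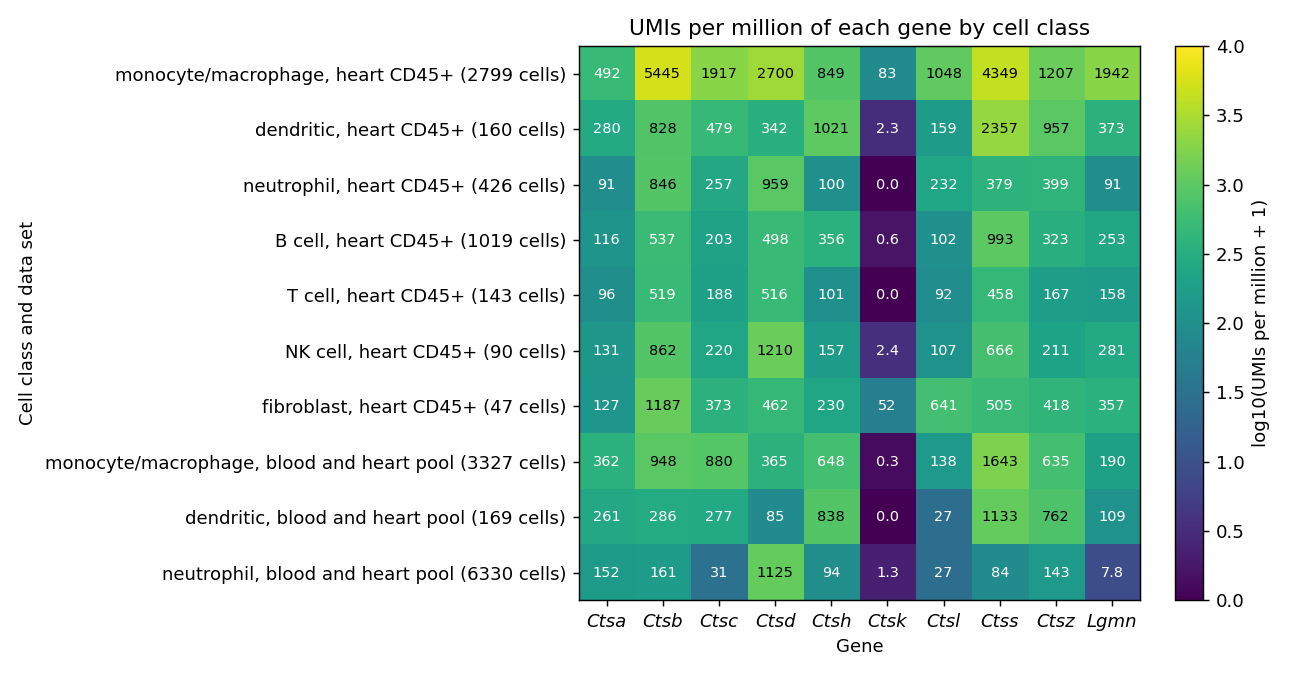
Levels of the 10 members in 7 classes of the CD45+ heart libraries and 3 classes of the blood and heart pool, with all cells of a class summed; the number in each field is the level in CPM and the colour is its log10 after adding 1. Heart macrophages are brightest for Ctsb, Ctss and Ctsd, dendritic cells for Ctss and Ctsh, and neutrophils for Ctsd.

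Within the macrophages, sub-clusters separated members further; the clustering did not use the 10 genes or their inhibitors, and the sub-clusters are described without a test. In the CD45+ experiment the 2 sub-clusters with Trem2 and Gpnmb markers were the richest in Ctsb and Ctsd: 7710.3 and 4476 CPM in the one led by Gpnmb and Ccl8 (776 cells), and 8925 and 4430.1 in the one led by Spp1 and Lgals1 (361 cells). The Ly6c2 monocytes (538 cells) had 2602 and 1286, but Ctsc at 2517, near the 2658 of the Spp1 and Lgals1 cells, and Ctss at 4606. The sub-cluster led by Hspa1a and Cd83 (466 cells), made up mostly of steady state cells, had 3728 of Ctsb with 701 of Ctsd and 320.5 of Ctsl. Within the Spp1 and Lgals1 sub-cluster Ctsb was at 8098, 11252 and 6599 on days 3, 5 and 7 (168, 144 and 49 cells), and within the Ly6c2 monocytes at 2723, 2880.2 and 1355 (324, 154 and 57 cells). Both sub-clusters had their highest Ctsb on day 5, and at each of these days the Spp1 and Lgals1 cells were above the monocytes.

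The pool allowed the same sub-cluster to be followed from day 1. In its Ly6c2 monocytes (143, 369 and 210 cells on days 1, 3 and 5) Ctsb was at 1522, 2925 and 3199 CPM. Lgmn was at 651, 1444 and 1953, and Ctss at 1505, 2155 and 2568. Ctsl in these cells went the other way, at 1601, 1124 and 1139, and Ctsc had no order, at 1672, 1411 and 1659.6. The pool's Trem2 and Gpnmb sub-cluster, led by Fabp4 and Fabp5, stood at 8552 and 9199.9 of Ctsb, 7038 and 7995 of Ctsd and 3669 and 4614 of Ctsl on days 3 and 5, the highest Ctsl of the pool. The MHC II-high cells (131) had the lowest Ctsl, at 504. Over the 10 pool sub-clusters the Spearman correlations of the 45 pairs of members ranged from -0.28 to 0.99 with a median of 0.55, and over the 9 of the CD45+ experiment from 0.067 to 0.90 with a median of 0.62; sub-clusters share libraries, so these are descriptions.

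**Figure D5:**
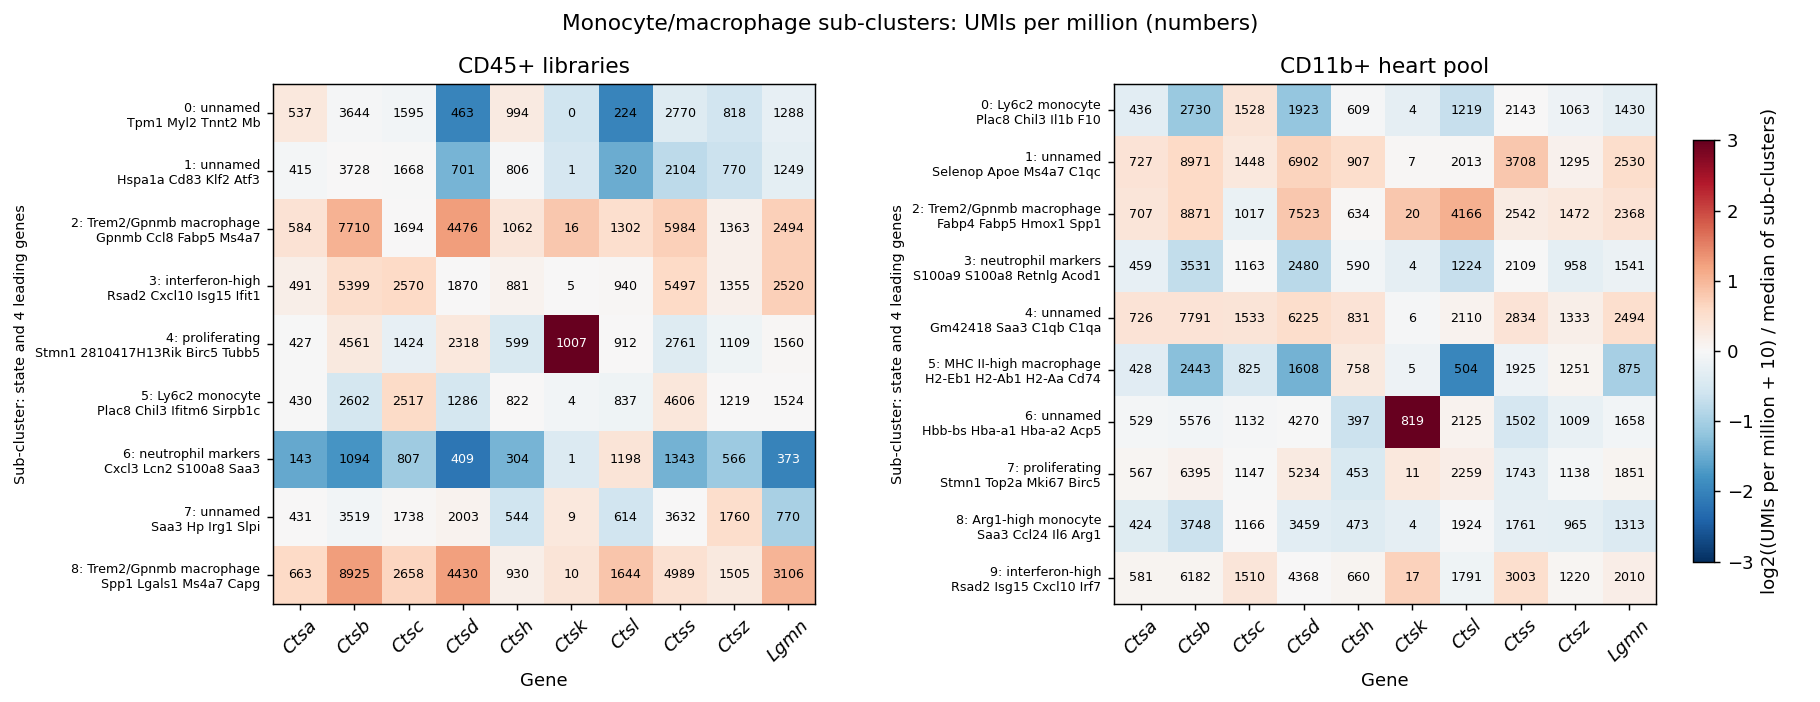
Levels of the 10 members in the monocyte/macrophage sub-clusters of the CD45+ libraries (left) and the CD11b+ heart pool (right), each labelled by its marker name and 4 leading genes; the numbers are CPM and the colour is the log2 ratio of the level plus 10 to the median of the sub-clusters. Ctsd is highest in the sub-clusters with Trem2 and Gpnmb markers of both experiments, and Ctsk in 1 sub-cluster of each.

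The surface antibodies of the CD11b+ heart pool sort cells without using any mRNA, so the members could be tested between stained and unstained cells of the same 3 days (6 sums, hashtag as a block). Ly6G marks neutrophils: 92.8%, 88.0% and 70.3% of Ly6G-high cells of days 1, 3 and 5 were named neutrophils, against 21.5%, 24.7% and 6.7% of Ly6G-low cells. With edgeR 7 members were lower in Ly6G-high cells and 0 higher, where 16.1% of the 9984 genes tested were lower and 34.3% called in either direction (1813 higher and 1607 lower; 1689 and 891 by DESeq2, 1056 and 1648 when scaled by total counts alone). Lgmn was at 276, 720.2 and 1612 CPM in Ly6G-high and 882, 1771 and 2180.4 in Ly6G-low cells (log2 difference -0.88 ± 0.20, adjusted p = 0.00439). Ctsl was at 589, 762 and 2085 against 1686, 2099 and 2658 (-0.86 ± 0.22, adjusted p = 0.00725). For both genes the Ly6G-high level was below the Ly6G-low level of the same day on all 3 days. A sum weighs cells by their UMIs, and the Ly6G-high sum of day 5 held 2243121 UMIs in 182 cells with a median of 4542. In the cells named neutrophils of that day and pool Ctsl was at 304 and Lgmn at 133 CPM. The Ly6G-high levels of day 5 are thus those of a mixed sum, not of neutrophils alone. Ctsc (-0.75), Ctsb (-0.79), Ctsh (-0.60) and Ctss (-0.58) were lower too, with adjusted p of 0.00991, 0.011, 0.0192 and 0.0323, and so was Ctsk (-2.14 ± 0.72, adjusted p = 0.0315), whose log2 differences by day were 1.33, -0.62 and -5.36. Ctsd (-0.63 ± 0.24, adjusted p = 0.0557), Ctsa and Ctsz did not pass. Without either day 3 sum 1 member was called, and with the upper and lower tertile of the stain in place of the 2 groups 0 were, with Ctsk turned to 1.98 (adjusted p = 0.153; range of calls over all left-out sums, 1 to 9).

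Ly6C marks monocytes that have recently entered from blood, and the tertiles of its stain among Ly6G-low cells set monocytes against more mature macrophages. 2 members were lower in the upper tertile, Ctsb and Ctsd, and 0 higher, where 3.93% of 10597 genes were lower, 4.4% higher and 8.32% called in either direction (466 higher and 416 lower; 347 and 543 when scaled by total counts alone). Ctsb was at 1397, 3056 and 4635 CPM in the upper and 3080.3, 6724 and 8854 in the lower tertile on days 1, 3 and 5, with log2 differences of -0.95, -0.96 and -0.93 (-0.95 ± 0.12, adjusted p = 0.0115). Ctsd was at 1451, 2154 and 3032 against 2406, 5476 and 7569 (-1.01 ± 0.18, adjusted p = 0.022). Both differed in the same direction on all 3 days. Ctsc had the opposite sign, 0.51 ± 0.14 (adjusted p = 0.0694), at 1744, 1312 and 1437 in the upper and 1165, 1146 and 1082 in the lower tertile, and did not pass. Cells named neutrophils made up 9.4%, 31.0% and 18.5% of the upper tertile and 11.5%, 0% and 0% of the lower. Between tertiles of the cells named macrophages alone, a setting chosen after seeing the data, Ctsb was at -0.92 (adjusted p = 0.0193) and Ctsd at -0.94 (adjusted p = 0.0249). Both calls were lost without any 1 of the day 3 sums (adjusted p = 0.0609 and 0.112 for Ctsb and 0.12 and 0.18 for Ctsd), and with a split at the median in place of tertiles (adjusted p = 0.0913 and 0.0951) or the raw antibody count (adjusted p = 0.0825 and 0.0903); Ctsd was lost without the lower tertile of day 5 (0.067).

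F4/80 marks macrophages, and between the tertiles of its stain 3 members differed, where 8.53% of 11016 genes were called (3.88% higher and 4.66% lower; 427 and 513 genes, but 82 and 318 by DESeq2 and 490 and 347 when scaled by total counts alone). Ctsd was higher in the upper tertile, at 2168, 5379.7 and 7274 CPM against 1683, 3384 and 4429 (0.52 ± 0.11 log2, adjusted p = 0.0265). Ctsh was lower, at 404, 479.7 and 644 against 518, 603 and 769 (-0.37 ± 0.087, adjusted p = 0.0341). Each kept its direction on all 3 days. As for Ly6C and IA/IE, the tertiles were taken on the centred log ratio of the antibody, not on its raw count. The median F4/80 count was 73.5, 74 and 82 in the upper and 53, 52 and 55 in the lower tertile on days 1, 3 and 5. Cells named neutrophils made up 25%, 27.7% and 6.22% of the upper tertile on days 1, 3 and 5 and 22.9%, 20.1% and 5.39% of the lower, and between tertiles of the cells named macrophages Ctsd was at 0.54 (adjusted p = 0.0241) and Ctsh at -0.37 (adjusted p = 0.0332). Ctsk was higher, 2.22 ± 0.33 (adjusted p = 0.00561), but with 2.76 against 6.16 on day 1 and 317 against 45 on day 5 its sign turned between days, and neither DESeq2 (1.18, adjusted p = 0.813) nor tertiles of the raw antibody count (0.27, 0.659) called it. The calls of Ctsd and Ctsh were lost without any 1 of the day 3 or day 5 sums, which left 0 or 1 member called, and without either day 1 sum 7 members were called. For IA/IE, the MHC class II protein, edgeR called 19 of 10642 genes (0.179%, with 0.132% higher and 0.047% lower; 14 and 5 genes, but 81 and 49 by DESeq2) and 0 members; 6 had an unadjusted p under 0.05, DESeq2 called 1, 1 was called without either day 3 sum, and Ctsk had the lowest adjusted p (1.17 ± 0.17, adjusted p = 0.0768). Ctss, which serves MHC class II, was at 0.12 ± 0.099 (adjusted p = 0.73) in this comparison. Cells named neutrophils made up 13.5%, 2.94% and 0.83% of the upper IA/IE tertile and 24%, 45.9% and 15.4% of the lower, and between tertiles of the cells named macrophages 0 members were called.

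In the blood and heart pool, the members made up less of the RNA of the monocyte/macrophage class than in either heart experiment on day 3 or 5. Among the 7 hashtags 2 stood apart. This pool included blood cells and no day 5 hearts, and was sorted and dissociated differently. Its class held 1250 Ly6c2 and 815 nonclassical monocytes. The part of these differences in the lower share was not tested. The conditions behind the hashtags are not known here, so the values are given per hashtag with no test. The joint share of the 10 members in monocytes/macrophages was 0.52% to 0.57% in hashtags 1 to 5, 0.694% in hashtag 6 and 0.845% in hashtag 7. Ctsl was at 61.7 to 79.3 CPM in hashtags 1 to 5 and at 348 and 475 in hashtags 6 and 7. Lgmn was at 102 to 150.4 against 339 and 573, and Ctsd at 233 to 279 against 588 and 993. For these 3 genes hashtags 6 and 7 lay above all others; of the Arg1-high sub-cluster of this class 122 and 165 cells were of hashtags 6 and 7 and 0 to 3 of each other hashtag, so that the class was made up of different cells there. By contrast, for Ctsb hashtag 6, at 827, lay within the 724 to 996 of hashtags 1 to 5 and hashtag 7, at 1479.6, above them. The neutrophils of this pool (6330 cells) were led by Ctsd, at 891 to 1496 over the 7 hashtags, while Lgmn was at 7.79 and Ctsl at 26.8 over all of them. Among its monocytes, the nonclassical ones led by Ace and Eno3 (815 cells) had 1942 of Ctsb but 277 of Ctsc and 319 of Ctsh, where the Ly6c2 monocytes (1250 cells) had 622, 907 and 710.4. These Arg1-high cells (292) had the most Ctsd (1157), Ctsl (636) and Lgmn (650.5) of the 7 sub-clusters.

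Other genes of the lysosome were read from lists, beside the same 4.9% of genes called higher and 5.62% lower for day 5 against day 1 in macrophages. Of 34 lysosomal hydrolases and cofactors, all of them tested, 18 were higher and 0 lower, with a median log2 change of 1.08; Hexa, a hexosaminidase subunit, was at 2.36 ± 0.42, adjusted p = 0.0261 and Naglu, which degrades heparan sulfate, at 2.10 ± 0.43, adjusted p = 0.0346. Of 17 membrane proteins and proton pump subunits 5 were higher and 0 lower, Lamp1, Cd63, Cd68, Atp6v0d2 and Atp6v1a, with Cd63 at 2.11 ± 0.24, adjusted p = 0.00939 and Cd68 at 1.53 ± 0.24, adjusted p = 0.0201. Atp6v0d2 was far higher in the few Ctsk-rich cells of day 5 than in the other day 5 macrophages. Its levels were 832 against 13.5 CPM in the CD45+ library and 848 against 20.8 in the pool. The part of those cells in its call was not tested. Of 14 cysteine protease inhibitors, 10 of them tested, 1 was higher, the intracellular serpin Serpinb6a (3.73 ± 0.25, adjusted p = 0.00454). Of 10 sorting and control genes 1 was lower, Tfec, a relative of Tfeb (-1.45 ± 0.29, adjusted p = 0.0323). Of 8 tested antigen processing partners of MHC class II 0 were called in either direction, where DESeq2 also called 0 and 1 had an unadjusted p under 0.05, and of the 7 other cathepsins 2 were expressed enough to be tested and 1 was higher, Ctsf, a cysteine cathepsin named here after its value was seen (2.93 ± 0.65, adjusted p = 0.042). In the Ly6C tertiles the hydrolases were split 9 lower and 1 higher in the upper tertile, and Serpinb6a was lower there (-2.48 ± 0.28, adjusted p = 0.0106). Of the antigen processing partners 8 of 8 were lower in the upper F4/80 tertile, H2-Eb1 at -3.65 ± 0.32, adjusted p = 0.000471, and 5 of 8 were higher in the upper IA/IE tertile, the protein they encode or serve (H2-Eb1 at 5.44 ± 0.31, adjusted p = 0.00352). In neutrophils 2 lists had calls for day 5 against day 1. Of the membrane proteins and proton pump subunits 1 was lower, Slc11a1, a metal transporter of the phagosome (-2.53 ± 0.47, adjusted p = 0.00506), and of the inhibitors 3 were lower and 0 higher, all stefin A genes, inhibitors of cysteine cathepsins, with BC100530 at -4.30 ± 1.06, adjusted p = 0.0238 and Stfa3 at -4.15 ± 1.19, adjusted p = 0.0439. The change of Stfa3 had opposite signs within the experiments, -5.46 in the CD45+ libraries and 1.12 in the pool, where its levels were under 1 CPM, and that of BC100530 the same sign, -4.63 and -3.39; stefin A copies are nearly identical, so that reads may be split between them. Stfa2l1 was higher in Ly6G-high cells (4.52 ± 0.35, adjusted p = 1.64e-07).

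The genes whose levels followed a member most closely were found by Spearman correlation over the 13 class sums of the CD45+ libraries with at least 30 cells; the sums share libraries and classes, so the values are descriptions. Cd68 (0.967) and Hexa (0.962) were among the 3 closest to Ctsa, and Creg1 (0.934) and the proton pump subunit Atp6v1a (0.934) among those closest to Ctsb. Lamp1 (0.967) and Psap (0.951) were among those closest to Ctsc, and Psap (0.956) also to Ctsz. Ctsd had its highest value with Creg1, at 0.846, and Ctsk its highest with Ybx1, at 0.893, the lowest leading values of the 10. Ctsk had 0 UMIs in the T cell, NK cell, neutrophil and day 7 dendritic sums. It had 3 in the macrophage sums of steady state and of day 1, so its ranks rest largely on ties and very low counts. The closest gene to Lgmn was Blvra (0.978), to Ctss Anxa4 (0.967), to Ctsl Rab5c (0.951) and to Ctsh Tmem219 (0.956).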

How the data were processed

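Single-cell 3′ RNA libraries of 7 samples were read as deposited: the authors' files hold raw counts of UMIs for each gene in each barcode and, in both pools, counts of antibody tags. Per the submitters' processing notes they were made with Cell Ranger on build mm10 (GRCm38), with version 3.0.2 in both pools, per the file headers; cell calling and annotation release are not given in the sources used here. Cells below 200 genes or above 10% mitochondrial UMIs were left out (the latter 0.44% to 5.12% of barcodes in the CD45+ libraries, 17.4% in the heart pool and 1.96% in the other pool), and doublets were removed with scrublet in CD45+ libraries (2 to 6 cells each) and by several hashtags in the pools (311 and 1430 cells). The scrublet counts were below what droplet loading usually gives in some libraries, so doublets may remain. Libraries shared 0 to 28 barcodes. Cells were clustered with scanpy 1.11.5 (2000 variable genes, 30 components, 15 neighbours, resolution 0.5, seed 0) without 31 cathepsin and inhibitor genes, and clusters were named from marker genes among their 10 leading genes, or, for 3 clusters of at least 50 cells, from 80% of a list detected in 20% of cells. UMIs were summed per class, experiment and day (at least 30 cells). Sums were tested with edgeR 4.0.16 (R 4.3.3; low-count filter, TMM, quasi-likelihood F test, two-sided), with experiment or hashtag as a term since each held every day or stain, Benjamini-Hochberg adjustment over all tested genes and a threshold of 0.05; DESeq2 1.42.0 was an alternative. The biological coefficient of variation was 19.5% in macrophages and 30.9% in neutrophils, and TMM factors ranged from 0.764 to 1.19 and from 0.536 to 1.47. The edgeR script was tested on simulated counts. All 10 members are named; of each gene list the 2 largest called changes with a mean of at least 20 CPM are named, and the 3 most alike genes had a mean of at least 50, on log2(level + 10). The members, lists and tests were chosen with earlier results of these data known.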

Additional observations from a re-analysis of the deposited data

How the results depend on the processing

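Of 1605 alternative values of the members' log2 changes 1300 kept direction and side of the threshold, 118 newly passed and 80 no longer passed. Another 103 changed direction with neither the main nor the alternative value called, and 4 reversed where the main or the alternative value was called. The 4 were Ctsc for day 5 against day 1 in macrophages without clusters named by contained markers (-0.55, edgeR adjusted p = 0.0266), Ctsk in tertiles of Ly6G (1.98, 0.153), and Ctsk in tertiles of Ly6C without the upper (-1.53, 0.0255) or the lower tertile of day 5 (-1.55, 0.027); leaving out 1 sum at a time gave -1.55 to 2.40 for the latter. The cause was not tested. Of 150 alternative levels 79 moved by less than the counting interval, and 3 moved over 1.5 times, all of Ctsk: 2.33 CPM on CD45+ day 1 with classes from each cell's own markers, 2.17 in steady state with up to 20% mitochondrial UMIs, and 108 on CD45+ day 5 as a mean over cells.

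The experiment or hashtag enters the fits as a replicate block, since each of them holds every day or stain compared; without the replicate block 0 members were called for day 5 against day 1 in macrophages, day 3 against day 1 in neutrophils, and Ly6G, Ly6C and F4/80. DESeq2 called 4 members for day 3 against day 1 and 1 for day 5 against day 3 in macrophages, 3 for the difference between classes, 4 for Ly6C and 1 for IA/IE. With no filter on low counts edgeR called 4, 1, 3, 5 and 1 in the same order, and 1 for day 5 against day 1 in neutrophils. Scaling by total counts alone gave 2 for day 5 against day 1 in neutrophils and 1 for the difference between classes, and shifted the median log2 change of all genes by 0.20 and 0.23 for days 3 and 5 against day 1 in macrophages, 0.67, 0.93 and 0.27 for the neutrophil comparisons, -0.68 for the difference, -0.21 for Ly6G and -0.11 for Ly6C; DESeq2 shifted that of the difference by 0.11. Without the neutrophil-marker sub-clusters 2 members were called for day 5 against day 1 in macrophages. Without clusters named by contained markers 4 were called for day 3 against day 1 and 4 for day 5 against day 3 in macrophages, and 3 for the difference. Classes from each cell's own markers, or the cathepsins left in the clustering, gave 0 for day 3 against day 1 in neutrophils. A split at the median or the raw antibody count gave 0 for Ly6C, tertiles 0 for Ly6G, and up to 20% mitochondrial UMIs 1 for IA/IE.

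Leaving out 1 sum at a time, where a day left with 1 sum is assumed to vary like the others, gave 0 to 8 calls for day 3 against day 1, 3 to 9 for day 5 against day 1 and 0 to 3 for day 5 against day 3 in macrophages. It gave 0 to 3, 0 to 3 and 0 to 0 in neutrophils, 0 to 4 for the difference, 1 to 9 for Ly6G, 0 to 3 for Ly6C, 0 to 1 for IA/IE and 0 to 7 for F4/80. Over the alternatives, the genes called among all tested ranged from 0 to 2166 (main value 5), 0 to 3164 (1129) and 0 to 830 (2) for the 3 macrophage comparisons, 0 to 717 (148), 0 to 1219 (443) and 0 to 31 (0) for those of neutrophils, and 0 to 646 (2) for the difference. They ranged from 239 to 3992 (3420) for Ly6G, 0 to 2085 (882) for Ly6C, 5 to 141 (19) for IA/IE and 6 to 2010 (940) for F4/80. Ctsk rests on 3 UMIs in 2 of the sums, so that its ratios to day 1 and steady state are bounded by those counts, and no mouse was measured by itself.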
